A study of Mus musculus with 10 samples.

Results

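The forkhead genes other than the Foxa subfamily numbered 41 among the 24500 genes of the count tables. They were taken by symbol, as every gene named Fox with a letter from b to s and a number. The 3 Foxa genes were kept apart as their closest relatives. H3K27me3 and EZH2 occupancy was measured by ChIP-seq in mouse E14 embryonic stem (ES) cells, which the labels give as strain 12910la. Control cells were wild-type. The authors describe both ex14D-Ezh2 cells and a separate Ezh2 knockout line. The mutant libraries here are titled Ezh2KO, and their cells are labelled a knockout of exon 14. These cells were therefore taken as the ex14D-Ezh2 cells (ex14D), which carry a CRISPR-Cas9 frameshift in exon 14 of Ezh2. In these cells only the splice form of EZH2 without exon 14 kept its catalytic SET domain. The labels name no other edit in either group. Each antibody had 2 libraries per genotype and each genotype had 1 input library, 10 libraries in all. No label states how many edited clones or separate cultures the ex14D libraries came from, so p-values measure only the spread between these libraries, and clone and genotype cannot be told apart.

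Forkhead proteins are transcription factors that share a winged-helix DNA-binding domain, the forkhead box. Many of them specify tissues of the embryo and are silent in ES cells, where PRC2, whose catalytic subunit is EZH2, places H3K27me3 on CpG-rich promoters of developmental regulators. Others are expressed in most dividing cells, and the FOXO proteins are switched off by AKT downstream of insulin signalling.

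H3K27me3 was counted in a 1 kb window centred on the most 5′ transcription start site of each gene. The H3K27me3 libraries held 594289 to 1450937 reads on genes, the inputs 409371 and 416778, and the EZH2 libraries 13628137 to 18403892. Levels are given as CPM, counts per 1000000 reads on genes of the library. A promoter was called marked when its H3K27me3 CPM, with 1 CPM added to both, was at least 2-fold over the input of the same genotype in both libraries. Among 8 ES cell marker genes only Klf4 was marked in control, against all 4 mesoderm, 4 neural and 4 endoderm marker genes. The EZH2 ex14D pair differed more between its libraries than the control pair (chi-square per degree of freedom 3.95 against 1.48), and results that rest on single libraries are given with and without them.

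Promoter sequences from RefSeq (GRCm38.p6, from 250 bases before to 50 bases after the start site) were matched for 25 of the 41 genes. The 6 below were chosen after their values were seen, to show marked promoters (Foxd1 and Foxf2), promoters rich in CpG without the mark (Foxo1 and Foxk2) and promoters with fewer CpG without it (Foxi1 and Foxn1). They run 5′ to 3′ on the strand of the gene, and capitals mark each CpG.
Foxd1 (chr13:98353995-98354294, plus strand, 15 CpG): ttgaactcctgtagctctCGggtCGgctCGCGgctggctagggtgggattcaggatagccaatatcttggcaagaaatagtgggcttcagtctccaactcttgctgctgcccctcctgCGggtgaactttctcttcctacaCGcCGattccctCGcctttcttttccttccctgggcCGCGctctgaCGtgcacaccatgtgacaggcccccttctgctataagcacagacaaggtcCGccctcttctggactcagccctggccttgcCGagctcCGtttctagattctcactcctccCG
Foxf2 (chr13:31625566-31625865, plus strand, 27 CpG): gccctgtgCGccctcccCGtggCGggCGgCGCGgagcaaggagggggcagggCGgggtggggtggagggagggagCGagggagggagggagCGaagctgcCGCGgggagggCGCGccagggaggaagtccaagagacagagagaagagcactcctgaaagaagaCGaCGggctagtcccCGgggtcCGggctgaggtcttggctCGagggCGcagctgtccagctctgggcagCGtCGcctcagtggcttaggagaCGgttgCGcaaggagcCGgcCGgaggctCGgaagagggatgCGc
Foxo1 (chr3:52268087-52268386, plus strand, 31 CpG): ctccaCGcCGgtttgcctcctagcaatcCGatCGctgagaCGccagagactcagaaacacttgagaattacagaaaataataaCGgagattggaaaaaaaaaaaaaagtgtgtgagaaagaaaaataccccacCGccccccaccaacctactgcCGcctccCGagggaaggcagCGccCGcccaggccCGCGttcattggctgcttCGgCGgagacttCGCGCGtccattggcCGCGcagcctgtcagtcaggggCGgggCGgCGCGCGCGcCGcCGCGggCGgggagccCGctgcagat
Foxk2 (chr11:121259737-121260036, plus strand, 59 CpG): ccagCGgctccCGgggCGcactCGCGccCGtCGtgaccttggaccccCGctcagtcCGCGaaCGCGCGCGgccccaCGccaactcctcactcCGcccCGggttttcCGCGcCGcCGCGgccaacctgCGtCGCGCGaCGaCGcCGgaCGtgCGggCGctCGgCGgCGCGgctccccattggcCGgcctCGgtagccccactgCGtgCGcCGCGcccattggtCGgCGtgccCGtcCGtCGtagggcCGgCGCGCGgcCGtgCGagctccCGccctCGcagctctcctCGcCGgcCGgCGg
Foxi1 (chr11:34208040-34208339, minus strand, 6 CpG): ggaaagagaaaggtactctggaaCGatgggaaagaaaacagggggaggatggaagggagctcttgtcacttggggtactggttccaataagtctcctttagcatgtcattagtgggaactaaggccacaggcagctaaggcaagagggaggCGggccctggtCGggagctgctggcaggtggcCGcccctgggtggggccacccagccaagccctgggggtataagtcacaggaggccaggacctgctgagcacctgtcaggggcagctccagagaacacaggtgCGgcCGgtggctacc
Foxn1 (chr11:78386559-78386858, minus strand, 8 CpG): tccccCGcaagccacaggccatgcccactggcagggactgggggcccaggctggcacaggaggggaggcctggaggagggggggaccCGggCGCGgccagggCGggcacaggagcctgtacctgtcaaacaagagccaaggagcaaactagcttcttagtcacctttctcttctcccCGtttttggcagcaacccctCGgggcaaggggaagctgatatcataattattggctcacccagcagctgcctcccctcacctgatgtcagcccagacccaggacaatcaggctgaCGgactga

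The promoter of Foxk2 held 59 CpG in 300 bases and that of Foxd1 15, so the marked promoter was the one with fewer. That of Foxi2, marked in control and not printed here, held 5, fewer than the unmarked Foxi1 and Foxn1. The median over the RefSeq table was 7 CpG. The forkhead consensus, searched as TGTTTAC and its reverse complement GTAAACA, was found in 0 of the 25 matched promoters and in 3.65% of the 32851 promoters of the RefSeq table.

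In control ES cells 22 of the 41 forkhead promoters were marked by H3K27me3 (53.7%, exact 95% binomial interval 37.4% to 69.3%, counting error only), against 11.3% of all genes. In ex14D 19 were marked (46.3%, 30.7% to 62.6%), against 9.14% of all genes. The 3 that were marked in control and not in ex14D were Foxn4, Foxj1 and Foxi2, and no forkhead promoter was marked in ex14D alone. Of the 2776 genes marked in control over all genes, 773 were not marked in ex14D, and 237 were marked in ex14D alone. The difference at forkhead promoters depended on the scaling. Per all counted reads, those on no gene included, the same 23 promoters were marked in both genotypes, the 22 and Foxj2. The share that was marked differed between roles. All 5 neural genes, 8 of 9 mesodermal genes and 6 of 8 genes of epithelia were marked in control. By contrast 0 of 7 broadly expressed genes and 0 of 2 Foxr genes were, with 1 of 4 Foxo genes (Foxo6) and 1 of 4 Foxp genes (Foxp2). Foxd3, which maintains ES cells and specifies neural crest, was marked, and Foxh1, the SMAD partner in Nodal signalling, was not. Of the Foxa genes 2 of 3 were marked. Input counts at the forkhead windows were 0 to 37 reads, so single values over input are imprecise.

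**Figure D1:**
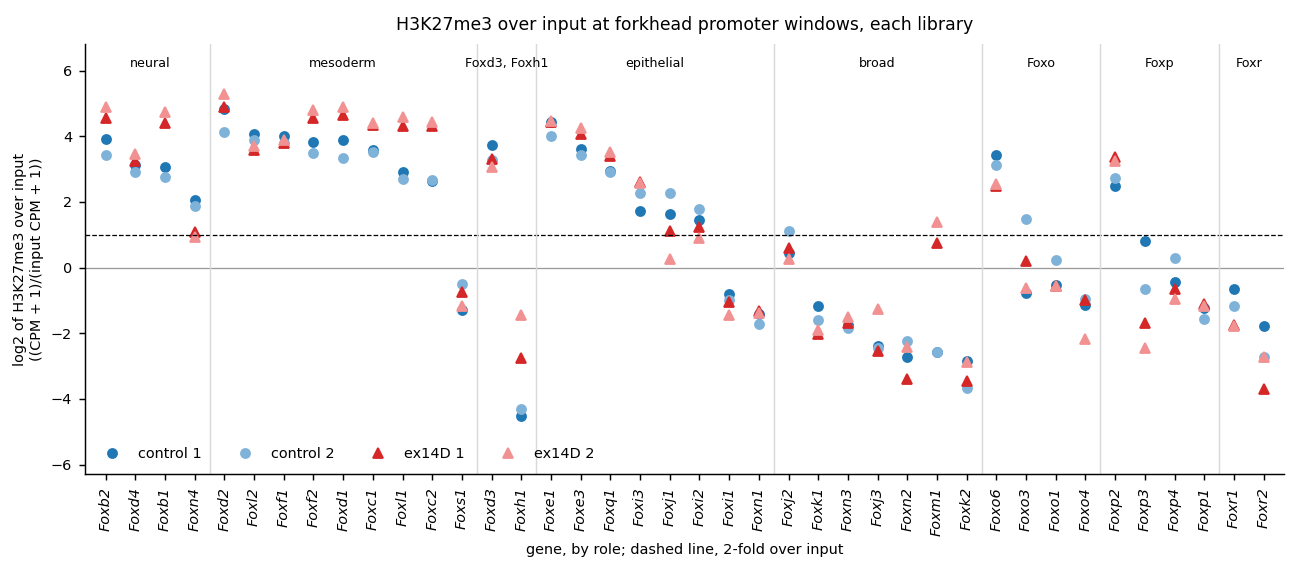
H3K27me3 over input (log2, y axis) at 40 forkhead promoter windows (x axis, grouped by role) in the 2 control and 2 ex14D libraries, 1 point per library. In control, neural genes and most mesodermal and epithelial genes lie above the dashed line at 2-fold, and the broadly expressed genes lie below it except for 1 library at Foxj2.

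The 4 highest control levels were at Foxd2, Foxe1, Foxl2 and Foxf1. Foxd2, expressed in somites and facial mesenchyme, had log2 values over input of 4.84 and 4.14 in control and 4.91 and 5.28 in ex14D. Foxe1, needed for thyroid and palate, had 4.42 and 4.01 in control and 4.42 and 4.47 in ex14D. These levels lay within the spread of each other, and the windows of Foxd2 and Foxl2 overlap those of the antisense genes Foxd2os and Foxl2os. Reads that fall in both windows are credited to neither gene, and the inputs held only 3 and 6 reads at Foxd2 and 3 and 7 at Foxl2. Foxl2, a determinant of ovarian granulosa cells, had 4.06 and 3.89 in control and 3.59 and 3.71 in ex14D. Foxf1, a factor of lung and gut mesenchyme, had 4.00 and 3.79 in control and 3.80 and 3.89 in ex14D. At Foxf1 the genotypes overlapped, and at Foxl2 both ex14D values lay below both control values, while in the comparison of counts given further on both genes were higher in ex14D.

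The 4 lowest control levels were at Foxh1, Foxk2, Foxm1 and Foxn2. Foxh1 had 1 and 2 reads in control and 7 and 17 in ex14D, against 25 and 16 in the inputs. Foxk2, which is broadly expressed, had 5 and 4 reads in control and 5 and 7 in ex14D, against 27 and 20 in the inputs. Both promoters lay below input in every library. Foxm1, which drives cell cycle genes of G2 and M, had 0 and 0 reads in control and 1 and 2 in ex14D, with 2 and 0 in the inputs, and its window overlaps that of Rhno1, so its level could not be set. Foxn2 had 3 and 7 reads in control and 7 and 13 in ex14D, against 16 and 25 in the inputs.

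CpG density alone did not separate marked from unmarked forkhead promoters. The 1 kb windows of all 41 genes held a median of 77 CpG, against 40 over all genes placed. The 22 marked windows held 42 to 124 CpG, with a median of 77. The unmarked windows lay on both sides of that range or within it, with a median of 87. Foxk2 held 148, Foxj3 135, Foxo1 122 and Foxn2 120 CpG, while Foxr2 held 8, Foxn3 and Foxp3 12 each and Foxn1, a regulator of thymic epithelium, 16. The windows of Foxn3 and Foxr2, placed by curated transcripts, lay inside the annotated genes. That of Foxn3 was centred at 99450074 on the minus strand of a gene that ends at 99563667. Its 12 CpG therefore do not describe the outermost end of the gene. No marked window held fewer CpG than the 42 of Foxl1. Among epithelial genes the unmarked ones, Foxi1 with 25 CpG and Foxn1, were those with the fewest. Among mesodermal genes the unmarked one, Foxs1 of pericytes, held 32, also the fewest.

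**Figure D2:**
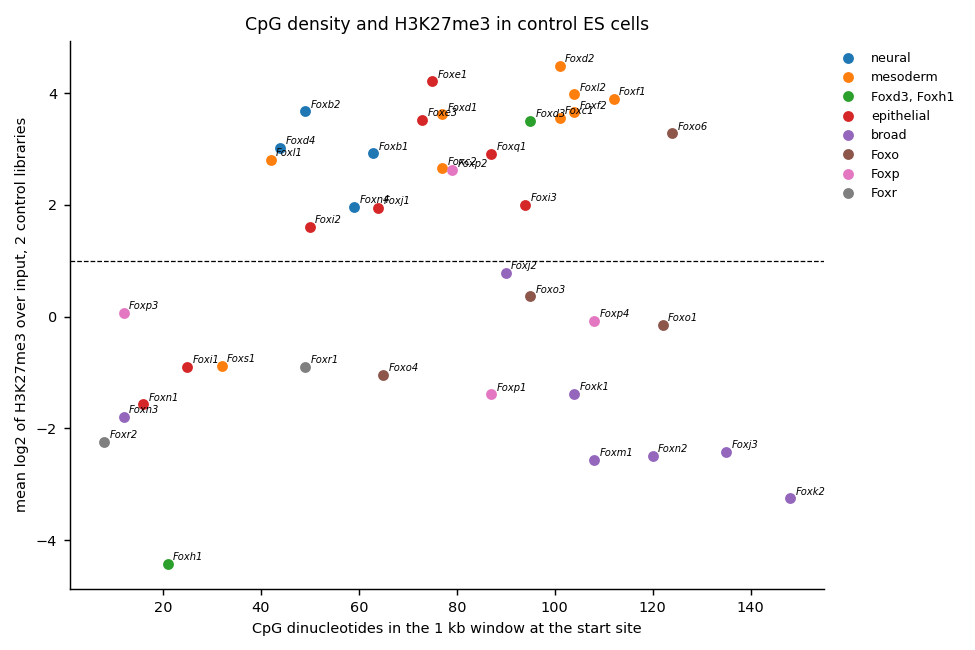
Number of CpG dinucleotides in the 1 kb window (x axis) against mean log2 H3K27me3 over input in the 2 control libraries (y axis) for 40 forkhead genes, colored by role. Marked genes occupy 42 to 124 CpG, and unmarked genes spread from 8 (Foxr2) to 148 (Foxk2).

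The comparison of ex14D with control covers how H3K27me3 reads were shared among genes, and cannot show whether the mark was sustained per cell. By Western blot the authors reported less EZH2 protein and less H3K27me3 in ex14D-Ezh2 cells than in controls. ChIP-PCR at the genes they chose also gave less H3K27me3. Dimethylation of H3K27 was, by their Western blot, not reduced in these cells. They wrote that the loss could reflect the EZH2 level, weak activity of this form, or both. To compare activities, they expressed EZH2 forms in ES cells that lacked EZH2. By immunofluorescence they reported that this form was severely impaired in trimethylating H3K27, while mono- and dimethylation were not affected. Relative to other genes, H3K27me3 counts at most marked forkhead promoters were higher in ex14D. Of the 41 genes 34 had enough reads to be tested, and 18 were higher and 1 lower (edgeR quasi-likelihood test, p adjusted after Benjamini-Hochberg across the 14883 genes tested), where 5.85% of all genes tested were higher and 3.19% lower. The other 7, Foxh1, Foxj3, Foxk2, Foxm1, Foxn2, Foxp3 and Foxr2, had 0 to 17 reads in each library. All 18 belonged to the 22 promoters marked in control (81.8%), while 28.5% of tested marked genes in the whole genome were higher. The rise was not particular to these forkhead genes. Also higher were 4 of 4 neural and 4 of 4 endoderm marker genes, 2 of 4 mesoderm marker genes and 2 of 3 Foxa genes. Of 4 ES cell marker genes tested 0 were higher and 1 was lower. Before TMM scaling both ex14D libraries lay above both control libraries at 17 of the 34 genes tested, against 9.1% of all genes tested. The log2 fold changes of the 18 ran from 0.73 to 1.93. The median over the genes tested was 0.81, and over all genes -0.02. These are shares of the reads of a library and give no amount of H3K27me3 per cell. TMM scaling, which sets the bulk of genes to no change, raised ex14D over control by 0.45 on the log2 scale for every gene, and the CPM values and levels over input of single libraries are without it. Scaled by reads on genes alone, the medians were 0.36 and -0.47, the difference between them stayed at 0.83, and 15 genes were higher and 1 lower. With that scaling 2.67% of all genes tested were higher and 14.6% lower. Without control replicate 2 the test called 8 higher, Foxb2, Foxc1, Foxc2, Foxd2, Foxe1, Foxi3, Foxl1 and Foxp2, and 17 had an unadjusted p under 0.05. The calls then lost had adjusted p from 0.0513 to 0.322. Without the filter on low counts Foxh1 was called higher too, with a level below input in every library.

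**Figure D3:**
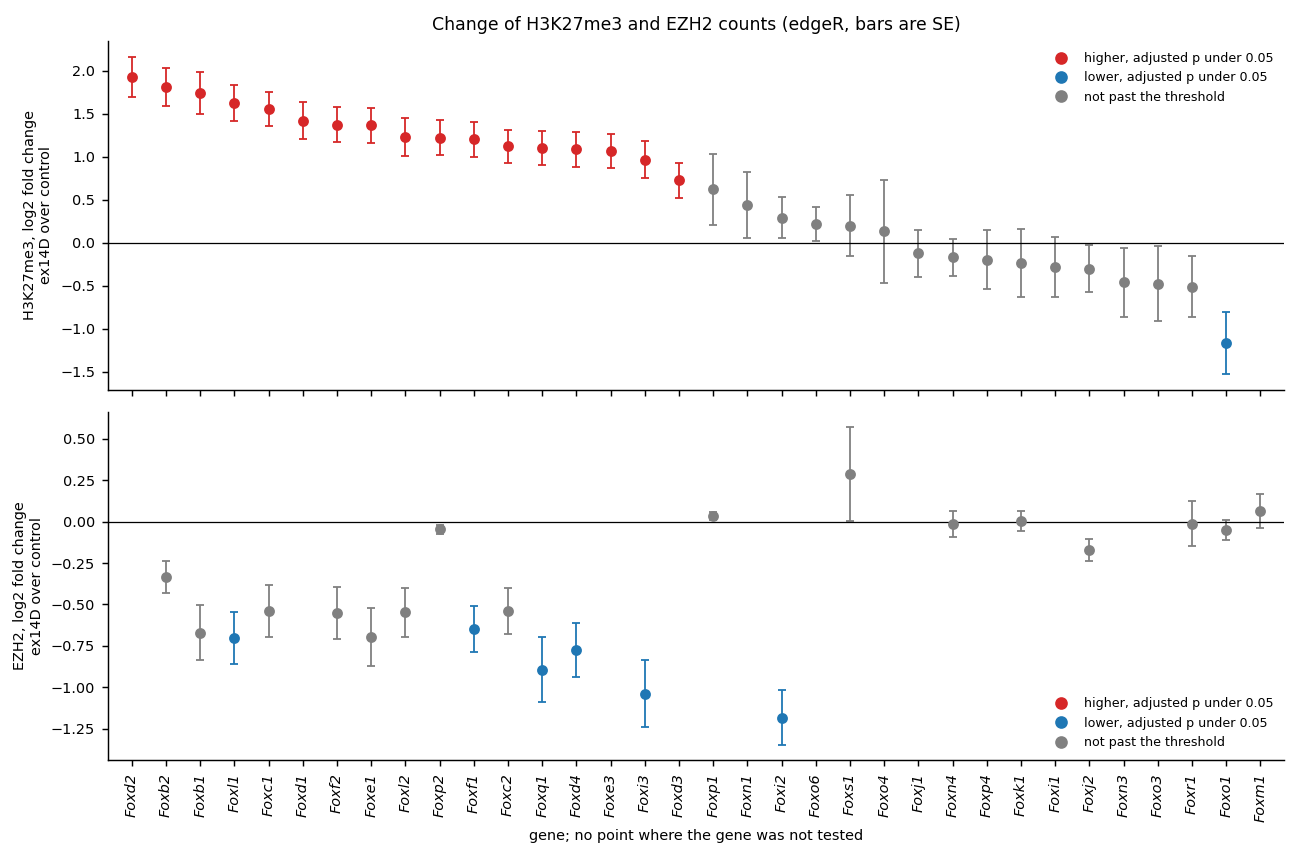
Log2 fold change of ex14D over control (y axis) with its SE for H3K27me3 counts (upper panel, 33 genes drawn) and EZH2 counts (lower panel, 22 genes drawn), from 2 libraries per genotype and antibody, with genes on the x axis ordered by the H3K27me3 change. Genes higher for H3K27me3 sit on the left, and those among them tested for EZH2 lie below 0 in the lower panel.

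Of the neural genes 4 of 5 were higher. Foxb1, a factor of the diencephalon, had 89.2 and 72.6 CPM in the control libraries and 172 and 219.5 CPM in the ex14D libraries (log2 fold change 1.74 ± 0.25 (SE), edgeR adjusted p = 2.86e-05). Foxb2, of the developing neural tube, had 715 and 510.0 CPM in the control libraries and 1379 and 1756 CPM in the ex14D libraries (log2 fold change 1.81 ± 0.22 (SE), edgeR adjusted p = 4.5e-06). In both genes each ex14D library was far above each control library. The window of Foxb1 overlaps that of B230323A14Rik, and reads in the shared stretch are credited to neither gene. Foxd4 of early neuroectoderm rose by 1.09 on the log2 scale (edgeR adjusted p = 0.000549). Foxn4, of retinal and spinal interneurons, had 215 and 191 CPM in the control libraries and 139 and 124 CPM in the ex14D libraries (log2 fold change -0.17 ± 0.22 (SE), edgeR adjusted p = 0.73), and both ex14D libraries lay below both control libraries before TMM scaling. Its level over input was 2.05 and 1.88 in control and 1.09 and 0.93 in ex14D.

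Of the 9 mesodermal genes 8 were higher, and 5 of them lie in 2 clusters. On chromosome 8, Foxf1, Foxc2 and Foxl1 have start sites within 43299 bp. Foxc2, a factor of lymphatic vessels and paraxial mesoderm, had 567 and 584 CPM in the control libraries and 874 and 958 CPM in the ex14D libraries (log2 fold change 1.12 ± 0.20 (SE), edgeR adjusted p = 0.000302). Foxl1 of the gut mesenchyme, 11514 bp away, had 629 and 548 CPM in the control libraries and 1205 and 1452 CPM in the ex14D libraries (log2 fold change 1.63 ± 0.21 (SE), edgeR adjusted p = 7.39e-06). Foxf1, on the other side, had 406 and 350.0 CPM in the control libraries and 615 and 655 CPM in the ex14D libraries (log2 fold change 1.20 ± 0.20 (SE), edgeR adjusted p = 0.000155). The genotypes did not overlap at any of these genes. Foxc2 and Foxl1 lay under a single H3K27me3 peak in all 4 libraries, at chr8:121112871-121131081 in control replicate 1, and under a single EZH2 domain in all 4 EZH2 libraries, so they are not independent.

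On chromosome 13, the start sites of Foxq1 and Foxf2 lie 67646 bp apart and those of Foxf2 and Foxc1 180830 bp apart, and each gene had its own peak. Foxc1, a factor of eye, heart and vessels, had 481 and 459 CPM in the control libraries and 989 and 1033 CPM in the ex14D libraries (log2 fold change 1.56 ± 0.20 (SE), edgeR adjusted p = 7.9e-06). Foxf2 of the gut mesenchyme had 639 and 503 CPM in the control libraries and 990.4 and 1171 CPM in the ex14D libraries (log2 fold change 1.37 ± 0.21 (SE), edgeR adjusted p = 5.05e-05). Foxq1, an epithelial gene of hair and stomach, had 416 and 408 CPM in the control libraries and 618 and 674 CPM in the ex14D libraries (log2 fold change 1.10 ± 0.20 (SE), edgeR adjusted p = 0.000376). At all 3 genes both ex14D libraries exceeded both control libraries.

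Outside these clusters, Foxd1, a gene of kidney stroma, had 814 and 556 CPM in the control libraries and 1236 and 1439.9 CPM in the ex14D libraries (log2 fold change 1.42 ± 0.22 (SE), edgeR adjusted p = 5.49e-05). Foxd2 had 237 and 146 CPM in the control libraries and 460.4 and 595 CPM in the ex14D libraries (log2 fold change 1.93 ± 0.24 (SE), edgeR adjusted p = 4.5e-06), the largest change of any forkhead gene tested. Foxl2 had 138 and 123 CPM in the control libraries and 214 and 232 CPM in the ex14D libraries (log2 fold change 1.23 ± 0.22 (SE), edgeR adjusted p = 0.000384). The increase at these genes exceeded the spread between libraries. Foxs1, unmarked in control, had 23.6 and 41.6 CPM in the control libraries and 32.4 and 24.0 CPM in the ex14D libraries (log2 fold change 0.20 ± 0.35 (SE), edgeR adjusted p = 0.82), with the ex14D values inside the control range.

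Of the 8 epithelial genes 4 were higher, Foxe1, Foxe3, Foxi3 and Foxq1. Foxe1 had 962 and 721 CPM in the control libraries and 1561 and 1615 CPM in the ex14D libraries (log2 fold change 1.37 ± 0.21 (SE), edgeR adjusted p = 5.26e-05). Foxe3 of the lens, 17169 bp from Foxd2, had 581 and 506 CPM in the control libraries and 776 and 892 CPM in the ex14D libraries (log2 fold change 1.07 ± 0.20 (SE), edgeR adjusted p = 0.000614). These groups did not overlap. Foxi3, of ectodermal appendages, rose by 0.97 on the log2 scale (edgeR adjusted p = 0.00288). Foxj1, the regulator of motile cilia, had 108 and 169 CPM in the control libraries and 122 and 65.7 CPM in the ex14D libraries (log2 fold change -0.12 ± 0.28 (SE), edgeR adjusted p = 0.864), and Foxi2 had 114 and 145 CPM in the control libraries and 131 and 103 CPM in the ex14D libraries (log2 fold change 0.29 ± 0.24 (SE), edgeR adjusted p = 0.558). Both were marked in control, with log2 values over input of 1.63 and 2.27 for Foxj1 and 1.44 and 1.78 for Foxi2. In ex14D these were 1.13 and 0.25 and 1.23 and 0.89, all below the control values, while the CPM values of the genotypes overlapped. Foxi1 and Foxn1 did not pass the test, with log2 fold changes of -0.28 and 0.44.

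Foxd3 was the weakest of the 18 increases, with 537 and 386 CPM in the control libraries and 609 and 506 CPM in the ex14D libraries (log2 fold change 0.73 ± 0.21 (SE), edgeR adjusted p = 0.0249). The lower ex14D library lay below the higher control library before TMM scaling. The call was lost with scaling by reads on genes alone (log2 fold change 0.28, adjusted p = 0.333), and its level over input was 3.75 and 3.27 in control and 3.32 and 3.06 in ex14D. The call at Foxi3 was lost with that scaling too (adjusted p = 0.0891). Both calls were also lost without ex14D replicate 1 (log2 fold change 0.59, adjusted p = 0.345 for Foxd3, and 0.96, 0.0631 for Foxi3) and without ex14D replicate 2 (0.86, 0.0806 and 0.99, 0.0568). The fold change of Foxi3 hardly moved when an ex14D library was left out. It was 0.52 with scaling by reads on genes alone, against 0.97 in the main fit. Without control replicate 1 it was 0.71, and without control replicate 2 it was 1.23.

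The Foxo genes differed among themselves. Foxo6, the brain-enriched member, was the only one marked, at 3.42 and 3.14 over input in control and 2.47 and 2.54 in ex14D, and its counts did not pass the test (log2 fold change 0.22 ± 0.20 (SE), edgeR adjusted p = 0.61). Foxo1, an effector of insulin signalling that also acts in pluripotent cells, had 19 and 51 reads in control and 21 and 18 in ex14D (log2 fold change -1.16 ± 0.36 (SE), edgeR adjusted p = 0.0408). It was the one forkhead gene called lower, and its level was near input in every library, from -0.55 to 0.23. That call was lost with DESeq2 (adjusted p = 0.141), and leaving out control replicate 2, ex14D replicate 1 or ex14D replicate 2 (adjusted p = 0.409, 0.285 and 0.282). Foxo3 had 10 and 79 reads in control and 52 and 25 in ex14D, a control pair so far apart that its range held both ex14D values as CPM (log2 fold change -0.48 ± 0.44 (SE), edgeR adjusted p = 0.606). Its direction turned with the control library left out, from a log2 fold change of -1.15 without control replicate 1 (adjusted p = 0.0189) to 1.14 without control replicate 2 (adjusted p = 0.382). Foxo4 had 5 to 15 reads and no call.

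Among the Foxp genes only Foxp2, of brain and lung, was marked and higher, with 156 and 185 CPM in the control libraries and 305 and 281 CPM in the ex14D libraries (log2 fold change 1.22 ± 0.21 (SE), edgeR adjusted p = 0.000185). Foxp1, which acts in ES cells as well as in B cells and neurons, had 9 and 11 reads in control and 22 and 18 in ex14D in its window, and the values over input were -1.22 and -1.56 in control and -1.10 and -1.17 in ex14D. A peak of 7.48 and 8.44 kb in control and 8.47 and 7.09 kb in ex14D nevertheless spanned that window in every library. The coordinates of the deposited counting windows are not given in the sources used here. Foxp4 and Foxp3, the regulator of regulatory T cells, were not marked. None of the 3 broadly expressed genes tested, Foxj2, Foxk1 and Foxn3, passed the test, with log2 fold changes of -0.30, -0.24 and -0.46, nor did Foxr1 (-0.51).

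H3K27me3 peaks covered 24 forkhead windows in both control libraries and the same 24 in both ex14D libraries, against 18.0% and 16.5% of all genes placed. With peaks of q under 0.001 alone the counts were 15 and 23. They comprised the 22 marked genes with Foxj2 and Foxp1. Foxj2, broadly expressed, lay close to the limit for a marked promoter at 0.46 and 1.10 in control. Peak widths at these genes had medians of 13.4 and 17.5 kb in the control libraries and 15.8 and 13.9 kb in the ex14D libraries. The peak of Foxe3 was 12.2 and 37.2 kb in control and 8.14 and 6.62 kb in ex14D, since it joined that of Foxd2 in control replicate 2.

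EZH2 counts were lower in ex14D at several forkhead genes and higher at none. The EZH2 counts followed gene length rather than a 1 kb window, so levels between genes are compared only per kb. Of the 41 genes 22 were tested, and 19 were listed at 0 in all 4 EZH2 libraries, as were 10575 genes in all. Of those 19, 9 lay under an EZH2 domain in both control libraries, Foxd1, Foxd2, Foxd3 and Foxj1 among them, so that their zeros give no level. Of the 22 tested 6 were lower and 0 higher in ex14D (edgeR, adjusted over 13401 genes), where 7.88% of all genes tested were lower and 0.0522% higher. At an unadjusted p under 0.05, 14 were lower, against 12.6% of all genes, and 0 higher. DESeq2 called 9 lower and 0 higher, where 6.01% of all genes it tested were lower. The median log2 fold change was -0.54 over the 22 genes and 0.02 over all genes, and over the 22 it was -0.85 without ex14D replicate 1 and -0.28 without ex14D replicate 2. Among genes marked by H3K27me3 in control, 40.0% of the 15 forkhead genes tested were lower, against 48.9% of all marked genes tested.

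Foxi2, of cranial ectoderm, had 15.3 and 17.0 CPM in the control libraries and 8.81 and 6.09 CPM in the ex14D libraries (log2 fold change -1.18 ± 0.16 (SE), edgeR adjusted p = 0.00686). Foxi3 had 43.9 and 43.3 CPM in the control libraries and 28.2 and 16.1 CPM in the ex14D libraries (log2 fold change -1.04 ± 0.20 (SE), edgeR adjusted p = 0.0217). Foxq1 had 127 and 124 CPM in the control libraries and 87.0 and 52.6 CPM in the ex14D libraries (log2 fold change -0.89 ± 0.19 (SE), edgeR adjusted p = 0.0327). These 3 genes of epithelia had the largest EZH2 falls, and in each both ex14D libraries lay below both control libraries. Foxd4 had 139 and 136 CPM in the control libraries and 99.9 and 65.9 CPM in the ex14D libraries (log2 fold change -0.77 ± 0.16 (SE), edgeR adjusted p = 0.0289). Foxl1 had 108 and 103 CPM in the control libraries and 79.6 and 54.1 CPM in the ex14D libraries (log2 fold change -0.70 ± 0.16 (SE), edgeR adjusted p = 0.0344). Foxf1 had 129 and 122 CPM in the control libraries and 96.2 and 68.7 CPM in the ex14D libraries (log2 fold change -0.65 ± 0.14 (SE), edgeR adjusted p = 0.0304). At these 3 genes too both ex14D libraries lay below both control libraries. That was so at 14 of the 22 genes tested, against 18.0% of all genes tested. At all 6 genes the ex14D libraries differed from each other more than the controls did, replicate 2 being the lower. Foxb1, Foxe1 and Foxc2 came next, with log2 fold changes of -0.67, -0.69 and -0.54 that missed the threshold (edgeR adjusted p = 0.056, 0.0588 and 0.0619). The count of 6 depended on single libraries. Without control replicate 1 or control replicate 2 no forkhead gene, and no gene of the genome, was called, with 6 and 11 lower at an unadjusted p under 0.05. Adjusted p for the 6 genes was then 0.168 to 0.383 and 0.201 to 0.355, and the log2 fold changes stayed below 0, with each lone control library assumed to vary like the ex14D pair. Without ex14D replicate 1 or ex14D replicate 2 the test called 13 lower, where 11.5% and 8.84% of all genes were lower, and there the spread came from the close control pair alone.

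**Figure D4:**
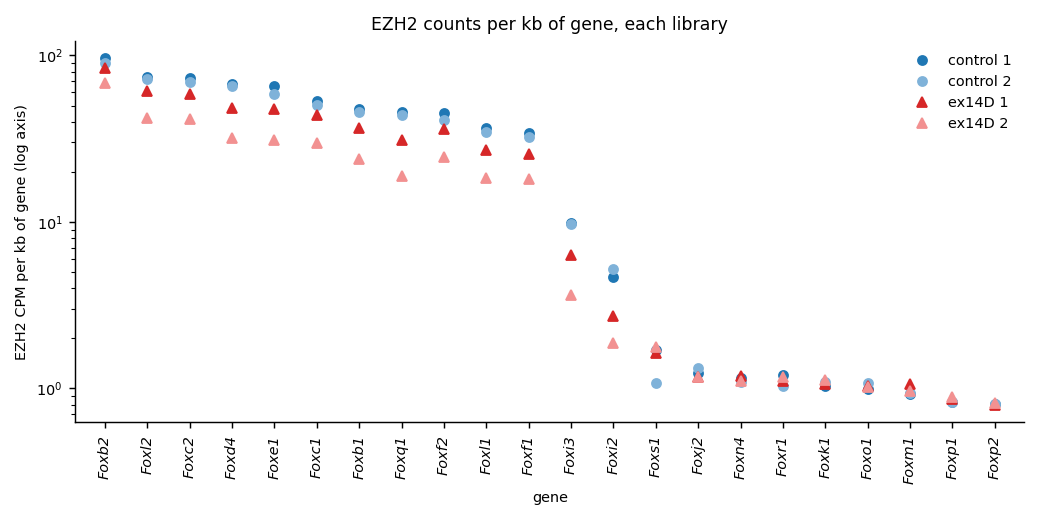
EZH2 CPM per kb of gene (log y axis) for the 22 forkhead genes tested (x axis) in the 2 control and 2 ex14D libraries, 1 point per library. From Foxb2 to Foxi2 every ex14D point lies below both control points, with replicate 2 the lower, and from Foxs1 on all values lie near 1.

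The genes that differed were short. The 15 tested genes under 10 kb had a median log2 fold change of -0.65 and held all 6 calls, and the 7 longer ones had a median of -0.02 and no call, a boundary chosen after the values were seen. Split by the H3K27me3 mark in control, the 15 marked genes had a median of -0.65 and all 6 calls, and the 7 unmarked ones 0.005 and no call. The short unmarked Foxr1 and Foxs1 had -0.01 and 0.29, and the long marked Foxn4 and Foxp2 -0.02 and -0.04. Length and mark largely went together, and their separate parts were not tested. Mean control levels ran from 93.0 CPM per kb at Foxb2, 73.3 at Foxl2 and 70.9 at Foxc2 to 0.829 at Foxp1 and 0.81 at Foxp2. Foxp1 and Foxp2 span 597405 and 540629 bp, and their EZH2 domains covered 5 to 6 kb, so most of the counted length there lay outside the domain. Of the 18 genes higher for H3K27me3, 13 were tested for EZH2. All 13 had a log2 fold change below 0, as had 45.0% of all genes tested and 88.9% of those marked by H3K27me3 in control, and the one nearest to 0 was Foxp2 at -0.04. Of the 13, 5 passed the test as lower: Foxf1, Foxl1, Foxq1, Foxd4 and Foxi3. The remaining gene with less EZH2, Foxi2, had no H3K27me3 call.

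EZH2 domains lay over 27 forkhead windows in both control libraries (65.9%, exact 95% binomial interval 49.4% to 79.9%) and over 24 in both ex14D libraries (58.5%, 42.1% to 73.7%), against 16.8% and 10.4% of all genes placed. Foxn4, Foxj1 and Foxo1 had a domain in control and none in ex14D, and no forkhead gene gained one. Of the 4090 genes with a domain in both control libraries, 1558 did not have one in both ex14D libraries. Another 6 had one in both ex14D libraries but not in both control libraries. EZH2 counts over the gene did not pass the test at Foxn4 and Foxo1 (log2 fold change -0.02 and -0.05), and Foxj1 was listed at 0. At Foxn4 the domain was 2 and 5 kb wide in control and 0 and 0 kb in ex14D, where 0 stands for no domain. At Foxo1 it was 3 and 4 kb wide in control and 0 and 0 kb in ex14D. At Foxj1 it was 2 and 2 kb wide in control and 0 and 0 kb in ex14D. These were among the narrowest control domains, and Foxn4 and Foxj1 were also among the 3 promoters marked in control and not in ex14D when levels were scaled to reads on genes. Foxo3 kept its domain, 4 and 5 kb wide in control and 4 and 3 kb in ex14D. Of the 27 windows with a control domain 16 had a narrower one in both ex14D libraries than in either control library (59.3%). That was close to the 57.9% of all genes with a control domain. Foxc2 and Foxl1, which share a domain, both count among the 16, so the windows are not all independent. At Foxf1 the domain was 20 and 24 kb wide in control and 21 and 19 kb in ex14D. At Foxl2 it was 15 and 17 kb wide in control and 9 and 10 kb in ex14D.

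**Figure D5:**
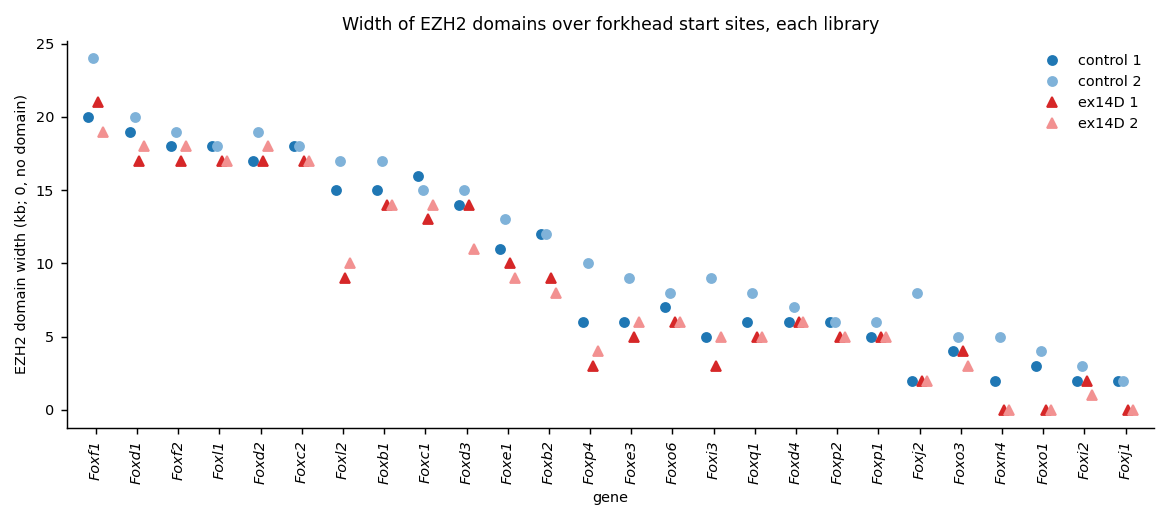
Width of the EZH2 domain over the start site (y axis, kb, 0 where none) for 26 forkhead genes with a domain in both control libraries (x axis), 1 point per library. Foxn4, Foxo1 and Foxj1 have no domain in the ex14D libraries, and Foxc2 and Foxl1 share 1 domain.

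Other genes of 2 pathways that work through forkhead proteins were described for comparison. Of 27 other genes of Nodal and SMAD signalling, which FOXH1 serves, 9 were marked in control and 6 in ex14D. For H3K27me3 20 were tested, 4 were higher and 1 lower, and the median log2 fold change was 0.09. For EZH2 3 of 17 tested were lower. Of 40 genes of insulin, PI3K and AKT signalling, which act on FOXO proteins, 4 were marked in control and 3 in ex14D. There 2 of 29 tested were higher and 1 lower for H3K27me3, with a median of -0.18, and 4 of 26 tested were lower for EZH2. Over all genes 11.3% were marked in control and 9.14% in ex14D. Of all genes tested 5.85% were higher and 3.19% lower for H3K27me3, and 7.88% were lower for EZH2.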

How the data were processed

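ChIP-seq was read from 10 libraries, grouped by the genotype and antibody in their labels. The authors aligned reads to mm10 with Bowtie and used htseq-count. The deposited counts are raw reads for each gene. Reads assigned to no gene (inputs, 97.9% to 98.0%, H3K27me3, 92.0% to 94.0%, EZH2, 33.8% to 34.9%) stayed out of library sizes. MACS2 broad peaks were called by the authors per library. Of their deposited columns, fold enrichment (a ratio) was not used in the text and −log10 q served as an alternative threshold. EZH2 domains are deposited hiddenDomains positions. The H3K27me3 domains, which run past GRCm38 chromosome ends, were not used here.

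Genes were placed on GRCm38.p6 with RefSeq curated transcripts (24368 of 24500), and a peak or domain counted with an overlap of at least 1 bp. Counts were compared per antibody with edgeR 4.0.16 in R 4.3.3 (TMM, filterByExpr, quasi-likelihood F test, p adjusted after Benjamini-Hochberg, threshold 0.05). The procedure was tested on counts simulated with a single dispersion for all genes and both genotypes. That simulation did not cover the wider spread of the EZH2 ex14D pair. Alternatives were DESeq2 1.42.0, other scalings, filters, pseudocounts (0.5 and 5 CPM) and thresholds, and each library left out. SEs are approximate. The members, role groups, pathway lists and tests were chosen with earlier results of these data known. Values per library are given for at most 12 genes per antibody past the threshold by adjusted p, the 4 highest and 4 lowest control levels, genes within 200 kb of each other, and Foxd3, Foxh1, Foxo1, Foxo3, Foxm1 and Foxp1. Other genes were named after their values were seen, and 1 gene that enters the counts and fits is not reported by name here.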

Additional observations from a re-analysis of the deposited data

How the results depend on the processing

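With 2 libraries per group and shallow H3K27me3 windows, small changes were not detectable. Leaving out each library in turn, the count of forkhead genes higher for H3K27me3 (18) ran from 8 to 18, the count lower (1) from 0 to 2, and their median log2 fold change (0.81) from 0.75 to 0.93; the count lower for EZH2 (6) ran from 0 to 13 and the EZH2 median (-0.54) from -0.85 to -0.28. With a control library left out the EZH2 test called no gene of the genome. The count lower for H3K27me3 was 0 with DESeq2 and 0 with the replicate number as a block. The median was 0.36 with library size only, 0.98 with DESeq2 and 0.69 without the filter on low counts. EZH2 was lower at 11 genes with the replicate block, where 6.36% of all genes tested were lower. Peaks with q under 0.001 covered 15 forkhead windows in both control libraries and 23 in both ex14D libraries, against 24 and 24. The cause of these shifts was not tested. The numbers do not pair the samples: deviations of same-numbered libraries correlated at -0.104 for H3K27me3 and -0.0317 for EZH2. Crossed pairing for H3K27me3, chosen after seeing the data, called 18 higher and 1 lower, where 7.96% and 5.34% of all genes tested were. For single genes, 278 H3K27me3 and 164 EZH2 alternative values kept their side of the threshold, 24 and 12 lost it and 1 and 22 gained it. No called result changed direction under the alternatives run.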
